A study of Homo sapiens with 6 samples.

Results

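The cytosolic ribosomal protein genes were examined in Hs578T cells, a human triple-negative breast cancer line with mesenchymal traits, after knockdown of the secreted matricellular protein CCN3. Members were chosen by gene symbol alone (RPS or RPL followed by a number, RPLP0, RPLP1, RPLP2 and RPSA), with pseudogenes left out, and this gave 84 of the 46427 genes in the count table. Of these, 32 belong to the small 40S subunit and 52 to the large 60S subunit. The set includes 7 genes whose product resembles another ribosomal protein (paralogs), RPL3L, RPL7L1, RPL10L, RPL22L1, RPL26L1, RPL39L and RPS27L. The shCTRL group was 3 libraries of cells transduced with the pSUPER retroviral vector carrying a control shRNA. The shCCN3 group was 3 libraries of cells carrying 1 CCN3 shRNA in the same vector, so that an effect of that shRNA sequence and an effect of lower CCN3 cannot be told apart. Both groups were stable lines, selected with puromycin and grown in medium with fetal bovine serum. Each was sampled as 3 biological replicates of poly(A) RNA. The libraries of a group thus came from 1 line, and p-values refer to the spread between libraries. A difference between the lines that arose apart from CCN3 cannot be told apart from the knockdown. The comparison asks whether the mRNAs for the ribosome itself differed between the knockdown and the control line.

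Each ribosome carries 1 copy of nearly every ribosomal protein, and the proteins are made from separate genes scattered over the genome. The genes are expressed in nearly all cells at high levels and tend to be regulated as a group. Their mRNAs typically begin with a cytosine followed by an uninterrupted run of pyrimidines, the 5′ terminal oligopyrimidine (TOP) tract, through which mTOR signalling controls their translation without a need for a change in mRNA level. A few members have paralogs that are expressed in fewer tissues or that replace the parent protein in some ribosomes, and RPL22 is known to limit the level of its paralog RPL22L1 by acting on its RNA.

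The start of the mRNA was read from RefSeq on GRCh38.p14, to show which of the genes described here carry such a tract. A tract was counted where the annotated start base was C and at least the next 4 bases were C or T, read on the strand of the gene. It was present in 47 of the 67 members with a start in the table used (70.1%), against 1404 of 27305 genes of all kinds (5.14%). The sequences shown are those of the paralogs RPL22L1 and RPS27L with their parents and of the other members that passed the test and had an entry. Each runs from 10 bases before the start to 20 bases from it, 5′ to 3′, and capitals mark the tract.
RPL22 (chr1:6199576-6199605, minus strand): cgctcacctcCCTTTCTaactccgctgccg
RPL22L1 (chr3:170870176-170870205, minus strand): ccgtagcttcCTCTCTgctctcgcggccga
RPS27 (chr1:153990752-153990781, plus strand): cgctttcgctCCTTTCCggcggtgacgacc
RPS27L (chr15:63157458-63157487, minus strand): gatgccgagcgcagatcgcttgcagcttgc
RPL7L1 (chr6:42879606-42879635, plus strand): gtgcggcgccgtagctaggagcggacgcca
RPL13 (chr16:89560672-89560701, plus strand): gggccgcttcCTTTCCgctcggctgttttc
RPS10 (chr6:34426050-34426079, minus strand): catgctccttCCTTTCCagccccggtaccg
RPL11 (chr1:23691796-23691825, plus strand): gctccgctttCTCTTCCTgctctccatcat
RPL13 and RPL11 have other annotated starts without a tract, and the start with one is shown. RPL22 and RPL22L1 both begin with a tract, of 7 and 6 bases, whereas RPS27 begins with one of 7 bases and its paralog RPS27L with none. RPL7L1 also has no tract at its annotated start.

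The libraries held between 56159110 and 68393177 counts, and 3 counts corresponded to between 0.0439 and 0.0534 CPM, a gene's counts scaled to the size of its library, which covers counting error only. CCN3 was 101 ± 2.43 CPM (SD, n = 3) in shCTRL and 47 ± 0.469 CPM (SD, n = 3) in shCCN3 cells, a log2 fold change of -1.10 (SE 0.055, edgeR adjusted p = 1.34e-06). Of the markers of the line, VIM was at 7775 CPM in shCTRL and 7062 CPM in shCCN3 cells, ZEB1 at 50.7 and 53.9 CPM and CD44 at 2157 and 1814 CPM, whereas the epithelial genes CDH1, EPCAM and KRT19 and the oestrogen receptor gene ESR1 had group means of at most 0.132 CPM. The mesenchymal markers FN1 and SPARC were at 2361 and 800 CPM in shCTRL and 2682 and 777 CPM in shCCN3 cells. Not all luminal and epithelial genes were near 0. ERBB2 was at 77.9 and 78.2 CPM and PGR at 2.86 and 3.8 CPM in shCTRL and shCCN3 cells. One library stood furthest apart for the genes described here. In shCCN3 replicate 2, 81 of the 82 members tested were higher than the mean of the other shCCN3 libraries, with a median difference of 0.35 on the log2 scale. In the same library the 78 mitochondrial ribosomal protein genes had a median difference of 0.26, other genes with transcripts under 1000 bases one of 0.18 (n = 1858), and genes with transcripts of at least 4000 bases one of -0.17 (n = 4217). In the other 5 libraries the median member differed from its group mates by between -0.23 and 0.14. A smaller shift of the same kind was present in shCTRL replicate 3, where 80 of the 82 members were higher, with a median difference of 0.14. There the mitochondrial ribosomal protein genes were at 0.13, short transcripts at 0.09 and long ones at -0.09. That control library was kept when shCCN3 replicate 2 was left out. Results are therefore given with and without shCCN3 replicate 2, and the part of transcript length in them was not tested. That library was singled out by the values of the members themselves. Calls and p-values of members without it are therefore a description of how far results rest on it, not a separate test.

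The share of the counts taken by the ribosomal protein genes overlapped between the groups. They held 5.11%, 5.21% and 5.62% of all counts in the shCTRL libraries and 5.19%, 6.32% and 5.02% in the shCCN3 libraries. Replicate 2 of shCCN3 was the highest of all and replicate 3 of shCCN3 the lowest, so the groups overlapped. The means were 5.32 ± 0.27% and 5.51 ± 0.707% (SD, n = 3 each), a difference of 0.197 percentage points (exact permutation test, two-sided, p = 0.9). The 95% Wilson interval of each library's share was at most 0.0127 percentage points wide, so counting error was far smaller than the differences between libraries. Without shCCN3 replicate 2 the difference was -0.209 percentage points, so the direction rested on that library. The 37 mitochondrially encoded genes, which were part of the total, held 5.47 ± 0.047% of the counts in shCTRL and 4.61 ± 0.26% in shCCN3 cells (SD, n = 3 each), and with these genes left out of the total the difference was 0.155 percentage points. As the RNA came from bulk cultures, fewer expressing cells and less RNA per cell cannot be told apart.

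**Figure D1:**
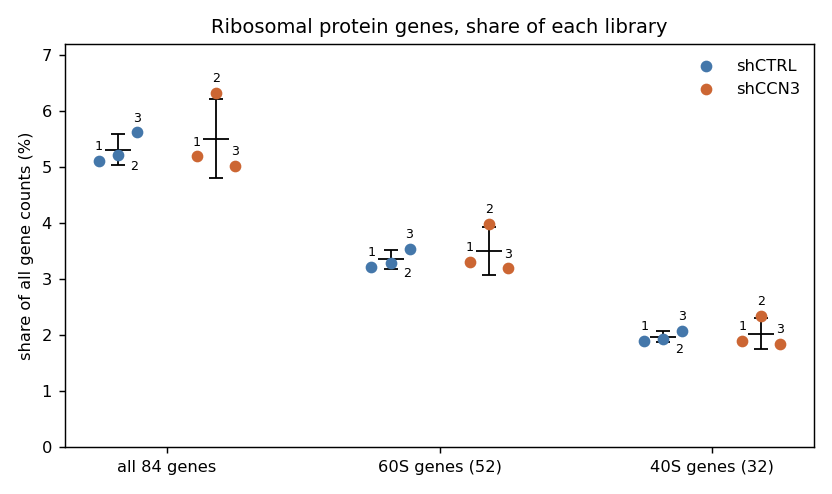
Share of all gene counts (percent, vertical axis) held by all 84 ribosomal protein genes, the 60S genes and the 40S genes in each library. Points are libraries with their replicate numbers, bars are the mean ± SD of 3 libraries, and shCCN3 replicate 2 is the highest point in all panels, at 6.32% for the whole set.

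The proportion of the subunits differed little between the groups. Genes of the 40S subunit held 1.97 ± 0.1% of the counts in shCTRL and 2.02 ± 0.275% in shCCN3 cells, and genes of the 60S subunit held 3.35 ± 0.17% and 3.49 ± 0.433% (SD, n = 3 each). The log2 ratio of 40S to 60S counts within a library, which does not depend on the scaling between libraries, was -0.765, -0.77 and -0.766 in shCTRL and -0.809, -0.773 and -0.796 in shCCN3 libraries. All 3 shCCN3 values lay below all 3 shCTRL values, a mean difference of -0.0259 (p = 0.1 from a two-sided exact permutation test, the lowest that 3 libraries against 3 can reach). The difference was -0.0359 without shCCN3 replicate 2, and -0.0303 with all 6 libraries when pseudogene rows were added.

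Gene by gene, few members changed. Of the 82 members tested, 6 were higher and 2 lower in shCCN3 cells at an adjusted p under 0.05, that is 9.76% of them, against 33.4% of all 17419 genes tested (16.2% higher and 17.3% lower). The genes that rose were RPL22L1, RPL13, RPL7L1, RPS10, RPS27L and RPL7, and RPL11 was among those that fell. The median log2 fold change was 0.03 over the members and 0.01 over all genes tested. The middle of the distribution was narrow, with quartiles of -0.06 and 0.11 for the members and -0.25 and 0.23 for all genes, and no member reached a log2 change of 1 in either direction, against 9.69% of all genes. CPM values of the groups did not overlap for 11 members (13.4%), against 46.3% of all genes. The 40S genes had 3 of 32 called and the 60S genes 5 of 50, and leaving out the paralogs left 5 of 77. For 73 of the 74 members not called, the 95% interval of the log2 fold change lay within 0.5 of 0 on both sides. The exception was RPS20, a protein of the 40S head, whose interval ran from -0.01 to 0.52.

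These counts depended on shCCN3 replicate 2. The median standard error of the members was 0.103 on the log2 scale, whereas the 1140 other genes of at least 158 CPM, the mean of the lowest member outside the paralogs, had a median standard error of 0.065 and 42.8% of them were called. Without shCCN3 replicate 2 the median standard error of the members was 0.062, and 30 of 82 members were called (36.6%), against 40.5% of all genes tested without it. Then 6 members were higher and 24 lower, and the latter were 29.3% of the members, against 20.5% of all genes. The 24 included RPS26, which lines the mRNA exit channel, at -0.35 (SE 0.064, adjusted p = 0.00158 from edgeR without that library), and RPL22 at -0.35 (SE 0.059, adjusted p = 0.000895). All 8 members called with the 6 libraries were also called without it. The median log2 fold change of the members was then -0.10. As the library left out was the one in which the members were high, leaving it out lowers their fold changes and narrows their spread by construction. The control library in which members were also high, shCTRL replicate 3, was kept.

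**Figure D2:**
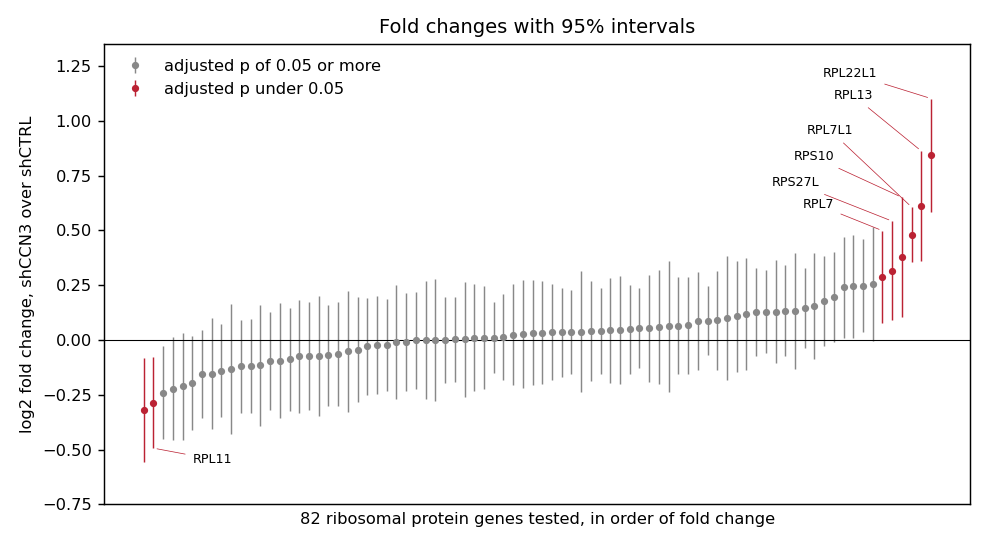
Log2 fold change of shCCN3 over shCTRL (vertical axis) for the 82 ribosomal protein genes tested, in rising order, with 95% intervals from edgeR's quasi-likelihood fit on all 6 libraries. The 8 genes with an adjusted p under 0.05 are red and named where described, and the highest value is 0.84 for RPL22L1.

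Of the core proteins, RPL13, a 60S protein on the solvent side of the ribosome, rose most. RPL13 lies on chromosome 16 from 89560657 to 89566829 of GRCh38. Its level was 721, 731 and 839 CPM in shCTRL and 1079, 1384 and 1033 CPM in shCCN3 libraries, and every shCCN3 library lay above every shCTRL library. The log2 fold change was 0.61 (SE 0.111, edgeR adjusted p = 0.00256), or 0.47 without shCCN3 replicate 2. RPS10, a protein of the 40S beak that is mutated in some families with Diamond-Blackfan anaemia, was at 397, 410 and 444 CPM in shCTRL and 479, 665 and 481 CPM in shCCN3 libraries. The groups did not overlap, and the log2 fold change was 0.38 (SE 0.121, adjusted p = 0.0396), or 0.21 without shCCN3 replicate 2. RPL7, an RNA-binding 60S protein, was at 1440, 1466 and 1589 CPM in shCTRL and 1701, 2122 and 1668 CPM in shCCN3 libraries. Its log2 fold change was 0.29 (SE 0.093, adjusted p = 0.0393), or 0.17 without shCCN3 replicate 2. The calls of RPS10 and RPL7 were lost when any 1 of the shCTRL libraries was left out.

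RPL11, on chromosome 1, fell. RPL11 binds the 5S ribosomal RNA together with RPL5 and, outside the ribosome, inhibits MDM2. It was at 729, 748 and 823 CPM in shCTRL and 614, 715 and 557 CPM in shCCN3 libraries. All 3 shCCN3 libraries lay below all 3 shCTRL libraries, replicate 2 only just. The log2 fold change was -0.29 (SE 0.092, edgeR adjusted p = 0.0398), or -0.38 without shCCN3 replicate 2. With any 1 of the other 5 libraries left out, RPL11 did not pass the test. RPL5, its partner in the 5S particle, was at 823 ± 36.4 CPM in shCTRL and 854 ± 94.2 CPM after knockdown (SD, n = 3 each), with a log2 fold change of 0.05 (95% interval -0.13 to 0.24).

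Among the paralogs, 3 of the 5 that were tested rose (60%, against 16.2% of all genes) and none fell. RPL22L1 was at 71.7, 69.2 and 81.9 CPM in shCTRL and 124, 158 and 117 CPM in shCCN3 libraries, a fold of 1.79. The lowest shCCN3 library was far above the highest shCTRL library, and the log2 fold change was 0.84 (SE 0.115, edgeR adjusted p = 0.000485), or 0.70 without shCCN3 replicate 2. RPL7L1, which resembles RPL7 and acts in the assembly of the large subunit, was at 114, 113 and 110 CPM in shCTRL and 157, 152 and 162 CPM in shCCN3 libraries. Its log2 fold change was 0.48 (SE 0.056, adjusted p = 0.00018), or 0.51 without shCCN3 replicate 2, and it was the only called gene among those that rose in which replicate 2 was the lowest shCCN3 library. RPS27L, a paralog of RPS27 known as a p53 target, was at 64.2, 60.1 and 69.1 CPM in shCTRL and 70.7, 92.5 and 77.7 CPM in shCCN3 libraries. The groups were close but did not overlap, and the log2 fold change was 0.32 (SE 0.10, adjusted p = 0.0373), or 0.21 without shCCN3 replicate 2. Its call was lost when shCTRL replicate 1, shCTRL replicate 2 or shCCN3 replicate 3 was left out. RPL26L1 and RPL39L were not called, with log2 fold changes of 0.13 (95% interval -0.13 to 0.40) and 0.13 (-0.08 to 0.34). RPL3L, known from skeletal and heart muscle, had 0 counts in all 6 libraries, where a count of 0 allows up to 0.0534 CPM. RPL10L, known from testis, had 12, 3 and 4 counts in shCTRL and 0 in every shCCN3 library, and neither gene passed the filter on low counts. Their parents RPL3 and RPL10 had log2 fold changes of 0.09 and 0.12, and neither was called.

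**Figure D3:**
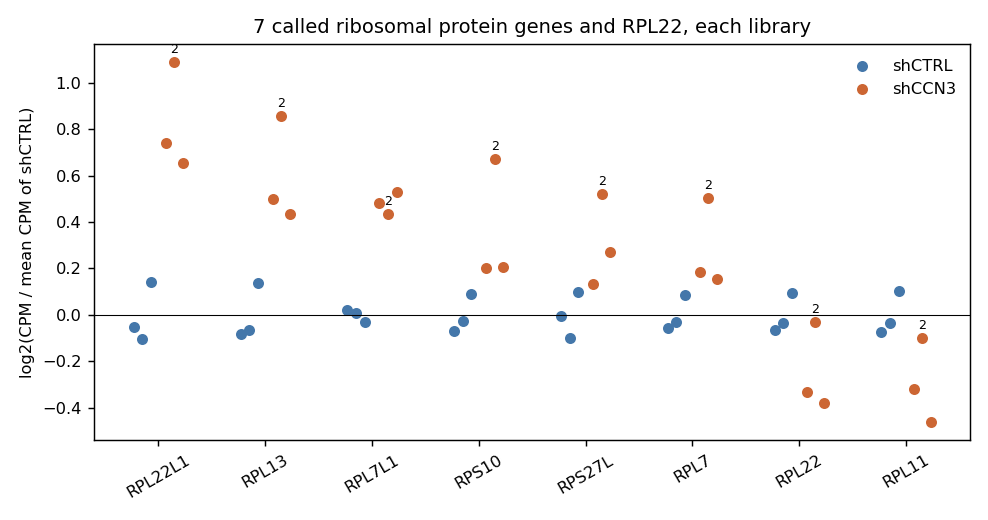
Level of 7 called ribosomal protein genes and of RPL22 in each library, as the log2 of CPM over the mean CPM of shCTRL (vertical axis). Points are single libraries, and shCCN3 replicate 2 is marked. It is the highest shCCN3 library for every gene shown except RPL7L1.

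The ratio of a paralog to its parent within a library removes the part of replicate 2 that both genes share. RPL22, a 60S protein that binds RNA, was at 364, 371 and 406 CPM in shCTRL and 302, 372 and 292 CPM in shCCN3 libraries. Replicate 2 of shCCN3 overlapped the shCTRL libraries, and the log2 fold change of -0.24 did not pass the test (SE 0.094, edgeR adjusted p = 0.0801). The log2 ratio of RPL22L1 to RPL22 counts was -2.34, -2.42 and -2.31 in shCTRL and -1.28, -1.23 and -1.31 in shCCN3 libraries. It was higher in all 3 shCCN3 libraries by a mean of 1.08 (exact permutation test, two-sided, p = 0.1, 0.25 after Benjamini-Hochberg adjustment over 5 pairs), and 0.1 is the smallest p the design allows. Here replicate 2 did not stand apart, and the difference was 1.06 without it. The log2 ratio of RPS27L to RPS27 counts was also higher in every shCCN3 library, with -2.56, -2.68 and -2.57 in shCTRL and -2.38, -2.18 and -2 in shCCN3 libraries. The mean difference was 0.415 (exact permutation p = 0.1, adjusted 0.25), and RPS27, a zinc-finger protein of the 40S subunit, had a log2 fold change of -0.10 (95% interval -0.32 to 0.13). For the other pairs the groups overlapped. For RPL7L1 to RPL7 the overlap came from shCCN3 replicate 2, at -3.8, since the other shCCN3 libraries were at -3.44 and -3.37 and the shCTRL libraries at -3.66, -3.69 and -3.86, and the difference without it was 0.333. The mean differences were 0.199 for RPL7L1 to RPL7, 0.101 for RPL26L1 to RPL26 and 0.0848 for RPL39L to RPL39, with exact permutation p-values of 0.3, 0.2 and 0.4.

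**Figure D4:**
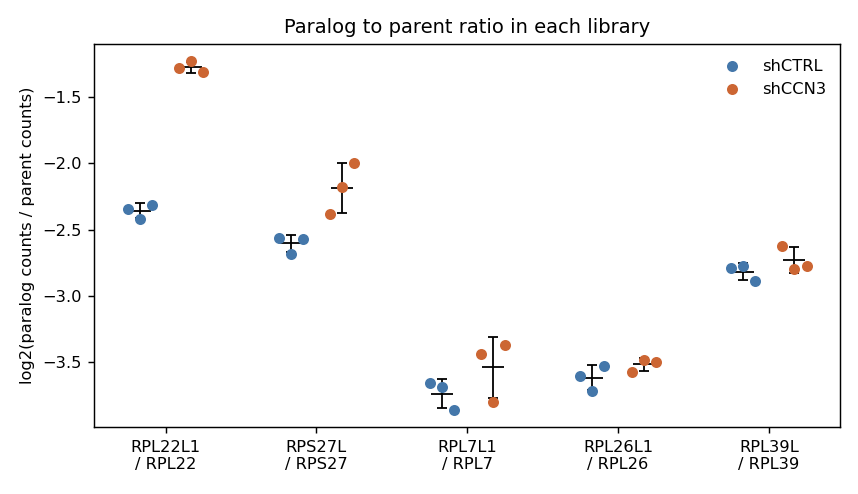
Log2 ratio of paralog counts to parent counts (vertical axis) in each library for 5 pairs. Points are libraries and bars are the mean ± SD of 3 libraries. The shCTRL and shCCN3 points are separate for RPL22L1 to RPL22, where the means are -2.36 and -1.28, and for RPS27L to RPS27, and overlap for the other pairs.

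Grouped by place in the ribosome, the members showed small differences. With all 6 libraries, 33.4% of all genes tested were called. The P stalk recruits the GTPase factors of translation, and none of its 3 proteins passed the test, with log2 fold changes of -0.12 for RPLP0, 0.04 for RPLP1 and 0.06 for RPLP2. RPLP0 was at 1458 ± 114 CPM in shCTRL and 1343 ± 174 CPM after knockdown (SD, n = 3 each), and it passed the test without shCCN3 replicate 2, at -0.23. Of 8 proteins that line the peptide tunnel or its exit, 0 were called by edgeR, DESeq2 or limma-voom and 0 had an unadjusted p under 0.05, and their log2 fold changes ran from -0.22 to 0.09. When shCCN3 replicate 2 was left out, edgeR called 2 of the 8 lower (25%, against 20.5% of all genes). They were RPL35 at -0.33 and RPL31 at -0.18. With all 6 libraries these counts were also 0 for the P stalk. Of 7 proteins of the mRNA channel and the decoding site, 0 were called by edgeR and by limma-voom. DESeq2 called 1 of them, RPS23, which helps to keep decoding accurate and was also the 1 with an unadjusted edgeR p under 0.05. RPS23 was at 395, 397 and 432 CPM in shCTRL and 450, 561 and 441 CPM in shCCN3 libraries, which did not overlap, and its log2 fold change was 0.25 (edgeR adjusted p = 0.0709), or 0.13 without shCCN3 replicate 2. Without that library edgeR called 4 of the 7 lower (57.1%, against 20.5% of all genes). They were RPS2, RPS15, RPS26 and RPS28, at -0.24, -0.23, -0.35 and -0.29. Of 18 members known to be mutated in Diamond-Blackfan anaemia, a disorder of red cell formation, RPS10 rose and RPL11 fell (11.1%, against 33.4% of all genes), and the median was -0.01. Without shCCN3 replicate 2, 1 of the 18 was called higher and 8 lower (50%, against 40.5% of all genes), and the median was -0.17.

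The levels of the core members per kilobase of transcript spanned a wide range. The lowest of these levels belonged to members with some of the longest transcripts, so the range is partly one of transcript length. On the scale of CPM per kilobase of transcript, RPL8 was the highest (2855 in shCTRL and 3120 in shCCN3 cells), followed by RPS2 (2250 and 2021). RPS20 (1588 and 1895) came next by the mean of the groups, but in shCTRL cells it lay below RPL41 (1759) and RPL12 (1674). RPL8 is a 60S protein close to the catalytic centre, and RPS2 lines the entry of the mRNA channel. None of RPL8, RPS2 and RPS20 differed between the groups past the test with all 6 libraries, but RPS2 was called lower without shCCN3 replicate 2, at -0.24 (edgeR adjusted p = 0.0155). The lowest members tested were paralogs, with 10 and 12.5 for RPS27L, 29.8 and 41.6 for RPL7L1 and 33.9 and 60.8 for RPL22L1, and RPL10L and RPL3L were below them. The transcripts used for RPS27L and RPL7L1 are 6434 and 3769 bases long, and a shorter one would give a higher level per kilobase. RPL22L1 thus lay below RPL22, which was at 183 and 155 CPM per kilobase.

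The fold changes of members tended to be close to those of the genes around them. For each member, the 24 nearest tested genes on the same chromosome that were no members were taken, and their median log2 fold change was set beside that of the member. Across the 82 members Pearson's r was 0.684 and Spearman's rho 0.627. This is a description across genes, which share libraries and, in part, neighbours. Without RPL13 and RPL22L1 r was 0.702 (n = 80), and with each library left out in turn it ran from 0.670 to 0.699. RPL13, at 0.61, had neighbours with a median of 0.60, and 22 of the 24 were higher in shCCN3 cells. RPL11 at -0.29 and RPL22 at -0.24 had neighbours at -0.22 and -0.26. RPL7 at 0.29 had neighbours at 0.34, RPL7L1 at 0.48 had neighbours at 0.34 and RPS10 at 0.38 had neighbours at 0.23. RPL22L1 lay furthest from its surroundings, at 0.84 beside neighbours at 0.13, and RPS27L was at 0.32 beside neighbours at 0.08. DNA copy number was not analysed here.

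**Figure D5:**
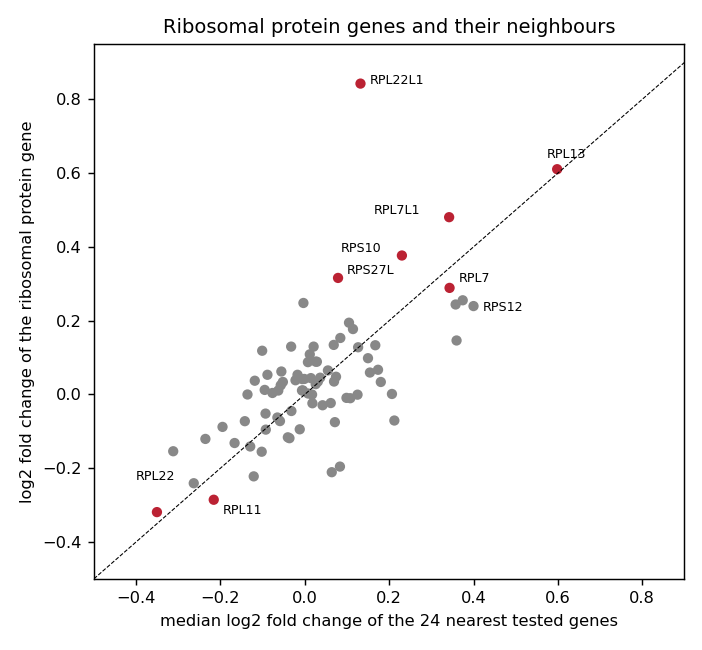
Log2 fold change of each of the 82 ribosomal protein genes tested (vertical axis) against the median log2 fold change of the 24 nearest tested genes that are no members (horizontal axis). Each point is a gene, red where its adjusted p is under 0.05, and the dashed line marks equal values. RPL13 and RPL22 lie on or near the line, and RPL22L1 lies above it, at 0.84 against 0.13.

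A similar pattern was seen on some chromosomes. All 5 members on chromosome 6, which were RPS10, RPS12, RPS18, RPL10A and RPL7L1, had log2 fold changes above 0, from 0.15 to 0.48 with a median of 0.24, and the 886 other genes tested there had a median of 0.34. RPS12 and RPS18, both 40S proteins, did not overlap between the groups and had log2 fold changes of 0.24 each, but did not pass the test (adjusted p = 0.105 and 0.102 from edgeR), and both were at 0.10 without shCCN3 replicate 2. All 4 members on chromosome 8, the chromosome that also carries CCN3, were above 0, from 0.13 to 0.29, beside a median of 0.11 for 608 other genes. On chromosome 1, 4 of 5 members were below 0 and the median was -0.24, beside -0.13 for 1732 other genes. Chromosome 12 was different, since its 4 members were all below 0 with a median of -0.16 and the 809 other genes had a median of 0.04. On chromosomes 10, 13 and 22, with 1 member each, the member and the median of the other genes also lay on opposite sides of 0. The 12 members on chromosome 19, the most on any chromosome, ran from -0.12 to 0.15. Their median was -0.03, beside 0.02 for 1114 other genes, and none of them was called with all 6 libraries. With shCCN3 replicate 2 left out, 5 of these 12 were called lower (41.7%). So were 3 of 5 on chromosome 1 (60%) and 3 of 4 on chromosome 12 (75%), against 20.5% of all genes tested. The members on chromosomes 6 and 8 all remained above 0 without that library, with medians of 0.10 and 0.09.

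The calls were also counted by whether a tract was annotated at the start of the mRNA. Among tested members off chromosome 8 with a start in the table, 4 of 47 with a tract were called and 2 of 19 without one. Over all genes tested, 33.4% were called. The median log2 fold changes of members with and without a tract were 0.01 and 0.03. Without shCCN3 replicate 2, 21 of 47 with a tract were called (44.7%), 18 of them lower, and 5 of 19 without one (26.3%), 3 of them lower. Of all genes tested without that library, 40.5% were called and 20.5% were lower. The medians of members with and without a tract were then -0.12 and -0.06. The difference between members with and without a tract was not tested. RPL22L1, RPL13 and RPS10 rose and RPL11 fell with a tract at an annotated start, and RPL7L1 and RPS27L rose without one.

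Processed pseudogenes resemble their parents, and the counting could divide reads between them. The table held 1445 pseudogene rows of ribosomal protein genes, which took 0.175 ± 0.00547% of the counts in shCTRL and 0.174 ± 0.0207% in shCCN3 cells (SD, n = 3 each). Of 188 such rows that were tested, 5 were higher and 5 lower (5.32%, against 33.4% of all genes). For RPL13P12 the log2 fold change was 0.63 (edgeR adjusted p = 0.000509), close to the 0.61 of RPL13, and held 31816 counts in all against 369193 for RPL13. RPL22P1 was at -0.30 (adjusted p = 0.0297), beside -0.24 for RPL22. RPL7P9 was at 0.29, as was RPL7, and did not pass the test. RPS10 also overlaps a read-through gene, RPS10-NUDT3, which had between 135 and 365 counts in a library, against 25778 to 36964 for RPS10.

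Genes that act beside the ribosomal proteins were set next to them. Unlike for the members, the genes around them were not examined, here or for the lists that follow. The part of chromosome region in their changes was therefore not tested. The companions FAU and RPL36AL, which encode or resemble ribosomal proteins but have symbols outside the pattern, and the ribosome-bound scaffold RACK1 had log2 fold changes of -0.01, 0.02 and 0.09. None was called by edgeR, DESeq2 or limma-voom with all 6 libraries, and 0 had an unadjusted p under 0.05, but FAU was called lower without shCCN3 replicate 2, at -0.19. A list of 14 other genes known for TOP mRNAs, most of them for translation factors, was also taken. Their tracts were not looked up individually. Of the 14, 4 rose and none fell (28.6%, against 33.4% of all genes), with a median of 0.12. Without shCCN3 replicate 2, 5 rose and 1 fell (42.9%, against 40.5% of all genes). With all 6 libraries the largest changes were in the EIF3E subunit of the initiation factor eIF3, from 471 ± 10.1 to 591 ± 27.5 CPM. Next came the poly(A)-binding protein PABPC1, from 2537 ± 115 to 3178 ± 235 CPM (SD, n = 3 each). Of 14 genes that host small nucleolar RNAs, 4 rose and 1 fell (35.7%, against 33.4% of all genes), among them SNHG32 at 0.62 and SNHG12 at -0.21. Without shCCN3 replicate 2, 3 rose and 3 fell (42.9%, against 40.5% of all genes).

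The machinery that builds ribosomes was looked at next. Of 39 assembly factors 5 rose and 3 fell (20.5%, against 33.4% of all genes), with a median of 0.03, and 13 were called without shCCN3 replicate 2 (33.3%, against 40.5%). BYSL, which acts late in making the 40S subunit, went from 24.7 ± 0.78 to 39.8 ± 4.16 CPM and LTV1, another 40S factor, from 34 ± 1.97 to 47.3 ± 1.63 CPM, whereas the helicase gene DDX10 went from 129 ± 8.04 to 82 ± 5.54 CPM (SD, n = 3 each). NOC2L had a log2 fold change of -0.29. Of 14 genes of RNA polymerase I and its factors, which transcribe ribosomal RNA, 6 rose and 1 fell (50%, against 33.4% of all genes). The median was 0.21. Without shCCN3 replicate 2, 6 rose and 1 fell as well (50%, against 40.5% of all genes). With all 6 libraries, POLR1A, the largest subunit of RNA polymerase I, rose from 56.3 ± 1.99 to 91.3 ± 8.9 CPM. The factor TAF1C rose from 40.7 ± 4.6 to 66.3 ± 3.8 CPM, and POLR1F fell from 22.9 ± 0.822 to 18.6 ± 1.12 CPM (SD, n = 3 each).

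Of 16 regulators of ribosomal protein output, 15 were tested, and 2 rose and 3 fell (33.3%, against 33.4% of all genes). Without shCCN3 replicate 2, 2 rose and 5 fell (46.7%, against 40.5% of all genes). The values that follow are from all 6 libraries. MYC, which drives ribosome production, rose from 47.5 ± 2.51 to 68.6 ± 5.29 CPM, and PDCD4, an inhibitor of the initiation helicase, from 33.9 ± 1.54 to 53.7 ± 2.73 CPM (SD, n = 3 each). RPTOR, the Raptor subunit of mTORC1, fell from 96.9 ± 4.2 to 70.5 ± 2.54 CPM, and EIF4EBP2, a repressor of cap-dependent translation under mTORC1, from 68.8 ± 0.798 to 55 ± 2.5 CPM (SD, n = 3 each). Of the 78 mitochondrial ribosomal protein genes, 10 rose and 11 fell (26.9%, against 33.4% of all genes), with a median of -0.05. MRPL35 at 0.51 and MRPS10 at 0.47 rose most, and MRPL37 at -0.61 and MRPL20 at -0.53 fell most. Without shCCN3 replicate 2, 35 of the 78 were called (44.9%, against 40.5% of all genes), 9 higher and 26 lower.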

How the data were processed

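Per the labels and the methods of the study, stranded libraries were made from poly(A) RNA of Hs578T cells (3 shCTRL, 3 shCCN3) and sequenced on a NovaSeq instrument. The authors deposited raw counts per gene. The submitters' processing notes name bcl2fastq 2.20.0, Trimmomatic, HISAT2 2.1.0, StringTie 2.1.3d, DESeq2 and GRCh38. The annotation and the strand setting of the counting are not given in the sources used here.

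Counts were tested with edgeR 4.0.16 (TMM factors, filterByExpr, quasi-likelihood F test, Benjamini-Hochberg adjustment over the 17419 genes tested, called at an adjusted p under 0.05) in R 4.3.3. DESeq2 1.42.0 and limma 3.58.1 were alternatives. CPM were computed from library totals and TMM factors. Shares and ratios were compared with exact permutation tests (two-sided). Levels per kilobase used the shortest principal transcript of GENCODE. Positions and mRNA starts came from RefSeq. Named genes were the 5 largest called changes per direction, the paralogs with their parents, members of fixed role lists, the 3 highest and lowest levels, and up to 2 called genes per direction of other lists. Others named were chosen after their values were seen: RPS12, RPS15, RPS18, RPS20, RPS23, RPS26, RPS28, RPL10A, RPL12, RPL31, RPL35, RPL41 and the pseudogenes. The members and lists were chosen with earlier results of these data known.

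Within each group the libraries were further apart than counting noise allows (chi-square per degree of freedom 7.11 to 46.5). On simulated counts the edgeR test recovered 50 of 96 genes changed by 0.5 and 74 of 98 changed by 1 (log2), with 7 false calls among 17419 genes. The simulation changed far fewer genes than were called here and had no shift shared by many genes in 1 library. These figures therefore do not give the power or the error rate for the ribosomal protein genes. The values of some genes are not reported here.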

Additional observations from a re-analysis of the deposited data

How the results depend on the processing

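The count of 8 called members was lower without a filter on low counts, at 4, of which 3 higher and 1 lower (RPL10L). It was 5, of which 1 lower, in the fit with a replicate block. Calls over all genes were also fewer, at 20.4% without the filter and 28.1% with the block, against 33.4% in the fit used above. Leaving out single libraries gave between 3 and 30 called members, with 3 to 8 higher and 0 to 24 lower. The most calls and the most lower calls came without shCCN3 replicate 2. Without that library 40.5% of all genes were called, and without any other single library between 23.4% and 27%. Where no member was called lower by edgeR, between 0 and 3 were lower at an unadjusted p under 0.05. RPL22L1, RPL13 and RPL7L1 were called under every setting run. Upper-quartile factors gave 1 lower call. Scaling to the summed counts of the ribosomal protein genes, chosen after seeing the data, gave 11 called members (13.4%, against 18.5% of all genes), of which 5 lower. It called 1 of the other genes with TOP mRNAs, 2 snoRNA host genes, 3 assembly factors and 2 regulators. RPL26 and RPLP1 then had log2 fold changes of -0.0014 and -0.0023. Called snoRNA host genes were 3 without a filter and 2 with the block, against 20.4% and 28.1% of all genes. Libraries with the same replicate number shared little of their deviation from the group mean (correlations 0.0891, -0.0256 and -0.0657). Whether they were prepared together is not stated in the labels.

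With each library left out, called snoRNA host genes ran from 2 to 6 of 14. Called assembly factors ran from 5 to 13 of 39 and called mitochondrial ribosomal proteins from 14 to 35 of 78. Of all genes tested, between 23.4% and 40.5% were called in these fits. The difference in share ran from -0.209 to 0.442 percentage points for all members, from -0.107 to 0.143 for 40S and from -0.102 to 0.299 for 60S genes. Of the 82 members tested, 31 had a log2 fold change below 0 with all 6 libraries and 62 without shCCN3 replicate 2. The range over all these fits was taken for a part of the named genes only. Among those, log2 fold changes that changed sign ran from -0.0766 to 0.12 for RPL26, -0.10 to 0.12 for RPL39 and -0.20 to 0.0095 for RPS27. They ran from -0.0314 to 0.22 for RPL10, -0.0323 to 0.16 for RPL3 and -0.12 to 0.12 for RPLP1. For RPLP2 the range was -0.12 to 0.17 and for RPL5 -0.0384 to 0.10. The lowest value was that without shCCN3 replicate 2 in each case. The cause of these changes was not tested. The planned total without genes whose symbol starts with MT- was not run, since 0 symbols do, and the mitochondrially encoded genes were found by chromosome instead. With 12 or 48 neighbours in place of 24, r was 0.630 and 0.692.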

Other observations

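RPSAP52, a row named as a pseudogene of RPSA and picked out after its values were seen, fell from 12.2 ± 0.0829 CPM in shCTRL to 4.91 ± 0.537 CPM after knockdown (SD, n = 3 per group). Its log2 fold change was -1.32 (edgeR adjusted p = 1.42e-05).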
